A study of Mus musculus with 6 samples.

Results

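The tumour suppressor p53 and 9 genes that it switches on directly were followed in mouse Sertoli cells with and without *Pa1*. The members were taken by gene symbol from the count table, and all 10 of the 10 named genes (*Trp53*, *Mdm2*, *Ccng1*, *Phlda3*, *Zmat3*, *Cdkn1a*, *Gadd45a*, *Sesn2*, *Trp53inp1* and *Perp*) were found among 28262 listed genes. All 10 also passed the filter on low counts, which left 14919 genes for testing. RNA-seq was made from untreated, cultured Sertoli cells of C57BL/6 mice at 20 days of age, with 3 libraries of each genotype. The Pa1F/F libraries carry floxed *Pa1* alleles and served as control, and the Pa1-/- libraries carry the same floxed alleles together with *Amh-cre*, a Cre transgene that the *Amh* promoter drives in Sertoli cells. PA1 is a subunit of the MLL3/MLL4 histone methyltransferase complexes. Other cells in the preparation would keep the gene, and since reads of *Pa1* were not analysed here, each library's genotype rests on its label. The methods of the study call the samples biological replicates, while the labels do not say whether they came from separate animals, so p-values measure the spread between these libraries, which may be technical in part.

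p53 is a transcription factor that cells keep low by constant degradation and stabilize after DNA damage and other stress. Its control is mostly at the protein, so the mRNA of *Trp53* need not follow its activity, and the level of its target genes is the usual readout in RNA data. Bound p53 raises the inhibitor of cyclin-dependent kinases p21 (*Cdkn1a*), which holds the cell cycle and so lowers many cell cycle genes indirectly. It also raises genes for repair, metabolism and cell death, and a set of proteins that act back on p53 or on growth signals, of which the ubiquitin ligase MDM2 is the best known. Sertoli cells, the nurse cells of the seminiferous tubule, stop dividing before puberty.

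p53 binds a pair of half-sites of 10 bases each. To show where such a pair lies near these genes, the RefSeq windows of GRCm38.p6 from 250 bases before to 50 bases after each gene's start were searched on both strands for a pair of p53 half-sites with no bases between them and at most 1 mismatch outside the required core letters. Windows were found for 7 of the 10 members. *Perp*, *Zmat3* and *Trp53inp1* had none. The pair was present in 22 of 32851 windows (0.067%), and among the members in *Cdkn1a* and *Ccng1*. Of 38 other p53 target genes with a window, *Rps27l* and *Gtse1* held one. The 4 sequences are shown because p53 recognises pairs of this kind and the genes' values follow below, with the core of each half-site in capitals.
*Cdkn1a*: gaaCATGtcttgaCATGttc
*Ccng1*: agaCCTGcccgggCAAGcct
*Rps27l*: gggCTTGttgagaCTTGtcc
*Gtse1*: gagCAAGttggggCTTGcct
The *Cdkn1a* pair lies at chr17:29090928-29090947 on the plus strand, 51 to 32 bases upstream of the first RefSeq start of the gene and 2822 bases or more upstream of its other start. The *Ccng1* pair lies at chr11:40755462-40755481 on the minus strand, 195 to 176 bases upstream of the start. The pairs of *Rps27l* (chr9:66946296-66946315, plus strand) and *Gtse1* (chr15:85859945-85859964, plus strand) each lie in the window of the second of 2 RefSeq starts, 117 to 98 bases upstream of it in *Rps27l* and over it in *Gtse1*. From the first start of each gene they lie 210 and 238 bases downstream, inside the gene as the annotation places it. Of these 4, the *Cdkn1a* pair alone holds both cores as CATG. The mismatch of the *Ccng1* pair lies inside a capitalized core, at the second letter of CCTG, which the search allowed. In the other pairs the mismatch lies outside the cores. The spelling CATGNNNNNNCATG, which reads the same on both strands, was in 234 of 32851 windows (0.712%). A match of letters in a window is a description of sequence and not a measured binding site. Pairs outside a window or with bases between the half-sites were not searched for, so a gene without a match may still hold one.

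Total counts on genes lay between 13203757 and 16231443, and TMM factors between 0.9895 and 1.028. The replicates of a genotype were not evenly spaced. Pa1F/F replicates 1 and 3 lay close together (SD of the log2 CPM difference over genes, 0.283), as did Pa1-/- replicates 1 and 2 (0.305), while the pairs with Pa1F/F replicate 2 (0.483 and 0.488) and with Pa1-/- replicate 3 (0.586 and 0.591) lay further apart. The close pairs differed by more than counting noise (chi-square divided by its degrees of freedom, 2.24 for Pa1F/F and 1.68 for Pa1-/-). The other Pa1F/F pairs had 18.7 and 20.3, and the other Pa1-/- pairs 28.9 and 30.9. Separate libraries of the same cells could also differ beyond counting noise, so the measure cannot tell whether close libraries are separate replicates. Each library was kept as 1 replicate. Pa1F/F replicate 2 and Pa1-/- replicate 3 are the libraries that stand apart, and the members' fold changes are given with and without them below. Of 10 Sertoli cell markers, 9 were tested and none was at or under 3 counts in every library. *Gata4* and *Clu* fell in Pa1-/- cells and the other 7 did not pass the test, at log2 fold changes from -0.43 (*Amh*) and -0.36 (*Cldn11*) to 0.13 (*Wt1*) and 0.38 (*Kitl*). The markers summed to 236500 to 239700 normalized counts in control libraries, 144800 to 146600 in Pa1-/- replicates 1 and 2 and 184300 in replicate 3, most of it *Clu*. *Amh* had 185.8, 253.7 and 179.3 normalized counts in control and 43.9, 48.4 and 364.7 in Pa1-/- libraries, so that it was highest in Pa1-/- replicate 3.

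Measured over all 6 libraries, none of the 10 members was differentially expressed by edgeR's quasi-likelihood test, which took an adjusted p under 0.05 together with a log2 fold change of 1 or more in either direction (background 12.0% of tested genes, 6.56% lower and 5.44% higher in Pa1-/- cells). DESeq2's Wald test and limma-voom also called 0, and 0 members met that fold change at an unadjusted p under 0.05. Without the fold threshold, *Gadd45a* and *Sesn2* fell and no member rose, so that 2 of 10 members passed against 35.3% of all tested genes (17.1% lower, 18.2% higher). The members' share past the test was not above the background. At an unadjusted p under 0.05 there were 3 members, 1 higher (*Trp53*) and 2 lower, and DESeq2 and limma-voom called 2 lower members each. The median log2 fold change of the members was -0.32, against 0.002 over all tested genes. By library, Pa1-/- replicate 3 was the lowest of the 6 libraries in 9 of the 10 members, as it was in 23.6% of all tested genes. In bulk RNA, fewer cells of a type and less RNA per cell cannot be told apart.

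**Figure D1:**
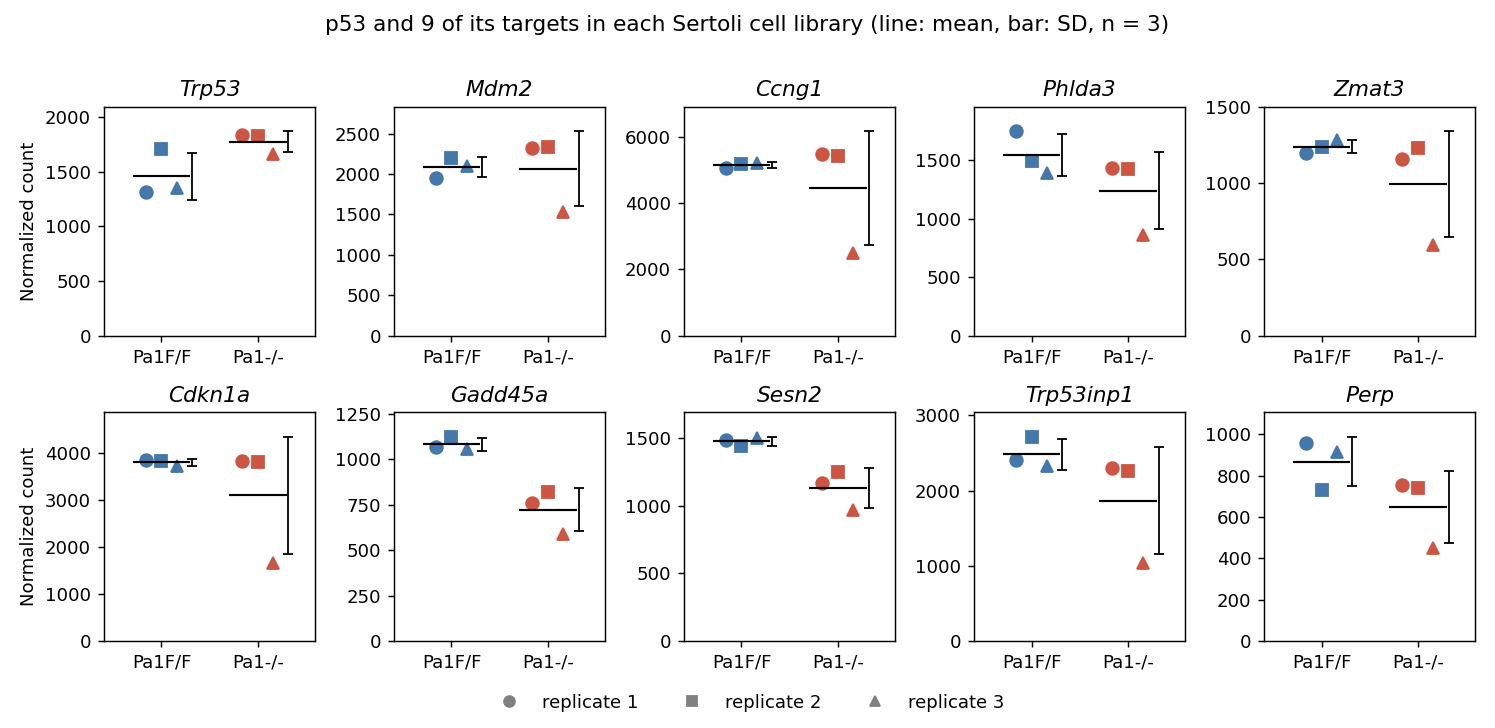
Normalized counts (y axis, from 0) of the 10 members in 3 Pa1F/F and 3 Pa1-/- libraries, 1 panel a gene, with symbols for the replicate number, a line for the mean and a bar for the SD (n = 3). Pa1-/- replicate 3 (red triangle) is the lowest library in every panel but that of *Trp53*.

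*Trp53*, which encodes p53 (chromosome 11, 69580359 to 69591873 in GRCm38, plus strand), had normalized counts of 1316, 1707 and 1350 in Pa1F/F replicates 1, 2 and 3 and of 1834, 1827 and 1667 in Pa1-/- replicates 1, 2 and 3. Normalized counts are counts scaled to the mean effective library size. Pa1F/F replicate 2 lay within the range of the Pa1-/- libraries, and the other control libraries lay below it. The mean was 1458 ± 217 (SD, n = 3) in control and 1776 ± 94.4 (SD, n = 3) in Pa1-/- cells, a log2 fold change of 0.29 ± 0.11 (SE) with an adjusted p of 0.0812 by edgeR's quasi-likelihood test. The exact two-sided permutation test gave p = 0.2, where 3 against 3 libraries cannot go below 0.1. *Trp53* passed the edgeR test when Pa1F/F replicate 2 was left out (log2 fold change 0.41, adjusted p 0.00868) and narrowly when Pa1-/- replicate 3 was (0.33, adjusted p 0.0497). No other member was above the control mean in all 3 Pa1-/- libraries, and even Pa1-/- replicate 3 had *Trp53* at 114.4% of that mean.

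*Mdm2* encodes the ubiquitin ligase that marks p53 for degradation, and is itself a p53 target (chromosome 10, 117688875 to 117710758, minus strand). Its normalized counts were 1956, 2200 and 2098 in Pa1F/F replicates 1 to 3 and 2327, 2341 and 1532 in Pa1-/- replicates 1 to 3. Pa1-/- replicates 1 and 2 lay above every control library and replicate 3 below every one, so the genotypes overlapped and the mean difference was near 0 (log2 fold change -0.01 ± 0.16 SE, adjusted p 0.960, edgeR). Without Pa1-/- replicate 3 the log2 fold change was 0.17 (adjusted p 0.0518, edgeR).

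*Ccng1*, cyclin G1, acts with a phosphatase on MDM2 and is a long-known p53 target (chromosome 11, 40748552 to 40755311, minus strand, with the half-site pair printed above). It had normalized counts of 5067, 5172 and 5227 in the control libraries and of 5488, 5414 and 2488 in Pa1-/- replicates 1 to 3. The coefficient of variation was 1.58% among the control libraries, and Pa1-/- replicate 3 stood at 45.6% of the mean of Pa1-/- replicates 1 and 2. Over the genotypes the log2 fold change was -0.21 ± 0.28 (SE, adjusted p 0.595, edgeR), and without that library it was 0.08 (adjusted p 0.120, edgeR).

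*Phlda3* encodes a small pleckstrin homology protein that restrains AKT (chromosome 1, 135766119 to 135769136, plus strand). The control libraries had 1748, 1498 and 1394 normalized counts and the Pa1-/- libraries 1438, 1425 and 857.7. *Zmat3* encodes a zinc finger protein that binds RNA (chromosome 3, 32334792 to 32366014, minus strand), and its values were 1196, 1240 and 1284 against 1156, 1229 and 594.2. In both genes Pa1-/- replicates 1 and 2 lay inside or just below the control range and replicate 3 lay far below it. Both had a log2 fold change of -0.32, with an SE of 0.20 and an adjusted p of 0.258 for *Phlda3* and an SE of 0.25 and an adjusted p of 0.355 for *Zmat3* (edgeR). Without Pa1-/- replicate 3 these were -0.11 and -0.05.

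*Cdkn1a* encodes p21 (chromosome 17, 29090979 to 29100722, plus strand). Its normalized counts were 3849, 3827 and 3719 in Pa1F/F replicates 1 to 3 and 3823, 3809 and 1661 in Pa1-/- replicates 1 to 3. All libraries but Pa1-/- replicate 3 lay between 3719 and 3849. The controls' coefficient of variation was 1.84%, and Pa1-/- replicate 3 lay at 43.5% of the mean of its companions. The means were 3799 ± 69.8 (SD, n = 3) and 3098 ± 1244 (SD, n = 3), with a log2 fold change of -0.29 ± 0.29 (SE) and an adjusted p of 0.470 by edgeR. The mean of Pa1-/- replicates 1 and 2 was 100.5% of the control mean, and without replicate 3 the log2 fold change was 0.01 ± 0.04 (SE, adjusted p 0.873, edgeR).

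*Gadd45a*, which encodes a stress protein that binds PCNA and slows the cycle (chromosome 6, 67035096 to 67037457, minus strand), showed another order. The control libraries had 1065, 1122 and 1056 normalized counts and the Pa1-/- libraries 760.4, 819 and 590.2. All 3 Pa1-/- libraries lay below all 3 control libraries, and replicate 3 was again the lowest. The mean fell from 1081 ± 35.9 to 723.2 ± 119 (SD, n = 3 each), which is 33.1% lower (log2 fold change -0.58 ± 0.12 SE, adjusted p 0.0111, edgeR). The exact permutation test gave p = 0.1, the smallest it can give for 3 against 3. The change did not rest on Pa1-/- replicate 3, without which the log2 fold change was -0.45 (adjusted p 0.00170, edgeR). The call was lost when close replicates were summed into 1 library (-0.64, adjusted p 0.0801, edgeR). A transcript on the opposite strand, *E230016M11Rik*, overlaps the gene over 859 bases at a mean of 52.7 control counts, and the strand setting of the counting is not given in the sources used here.

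*Sesn2* encodes sestrin 2, which restrains mTORC1 when amino acids are short (chromosome 4, 132492032 to 132510501, minus strand). Its normalized counts were 1486, 1438 and 1498 in control and 1166, 1250 and 967.9 in Pa1-/- cells, again without overlap. The mean fell by 23.5% (log2 fold change -0.39 ± 0.10 SE, adjusted p 0.0212, edgeR; exact permutation p = 0.1). Pa1-/- replicate 3 stood at 80.1% of its companions, nearer to them than for any other target in the group, and without it the log2 fold change was -0.28 (adjusted p 0.00627, edgeR). The call was lost when Pa1F/F replicate 1 (adjusted p 0.0737), Pa1F/F replicate 3 (0.0721) or Pa1-/- replicate 1 (0.0554) was left out, and when close replicates were summed (0.121). *Gm12981*, on the same strand, overlaps *Sesn2* over 6089 bases with a mean of 10.6 control counts.

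*Trp53inp1* encodes a stress-induced protein that links p53 to autophagy (chromosome 4, 11156431 to 11174379, plus strand). Its normalized counts were 2404, 2712 and 2325 in control and 2294, 2258 and 1045 in Pa1-/- cells. The genotypes did not overlap, but Pa1-/- replicate 1 missed the lowest control library narrowly and replicate 3 stood at 45.9% of its companions. The difference did not pass the test (log2 fold change -0.41 ± 0.28 SE, adjusted p 0.290, edgeR), and without Pa1-/- replicate 3 the log2 fold change was -0.12 (adjusted p 0.197, edgeR). *Perp* encodes a membrane protein of desmosomes that also acts in cell death (chromosome 10, 18845020 to 18857073, plus strand). It had 956, 732 and 914.6 normalized counts in control and 754.5, 741.3 and 449.9 in Pa1-/- cells, with Pa1F/F replicate 2 below Pa1-/- replicates 1 and 2 (log2 fold change -0.42 ± 0.21 SE, adjusted p 0.162, edgeR). Without Pa1-/- replicate 3 its log2 fold change was -0.21 (adjusted p 0.186, edgeR). Counted over the members, *Gadd45a*, *Sesn2* and *Trp53inp1* did not overlap between the genotypes and all 3 were lower in Pa1-/- cells. Of all tested genes 52.4% did not overlap, 26.1% lower and 26.3% higher.

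**Figure D2:**
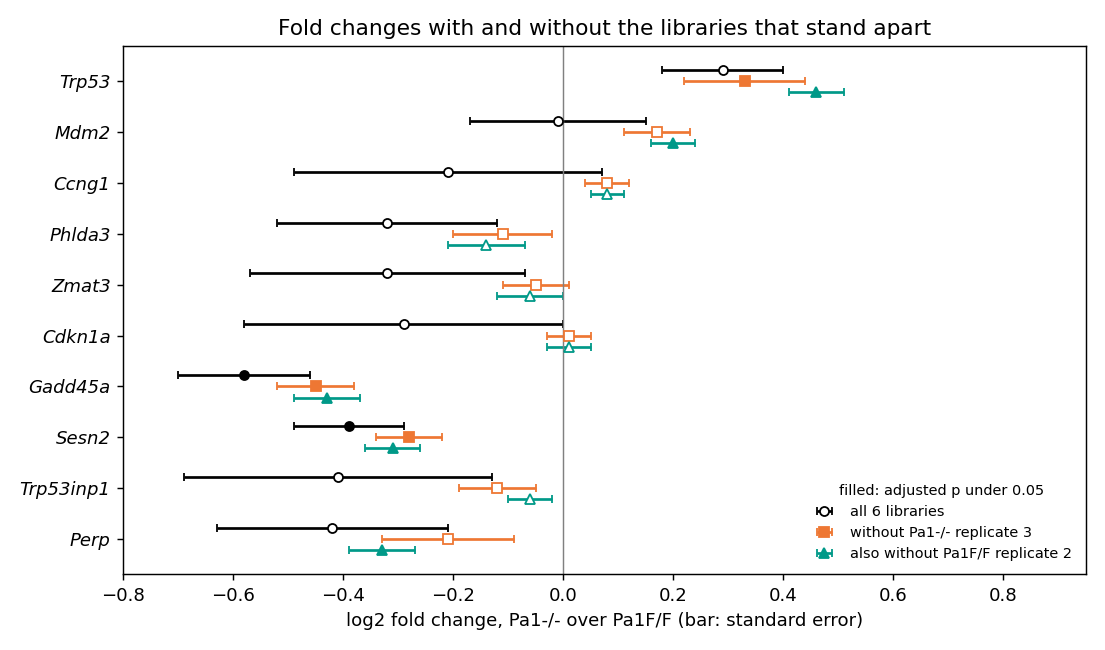
Log2 fold change of Pa1-/- over Pa1F/F cells with its standard error (x axis) for the 10 members (y axis), with all 6 libraries, without Pa1-/- replicate 3, and without Pa1F/F replicate 2 as well. Filled symbols have an adjusted p under 0.05 by edgeR. *Gadd45a* and *Sesn2* are filled and below 0 in all 3 settings, while *Cdkn1a* moves from -0.29 to 0.01.

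The order of the members by how low they were in Pa1-/- replicate 3 differed from their order by genotype. Set against the mean of Pa1-/- replicates 1 and 2, replicate 3 held 43.5% of *Cdkn1a*, 45.6% of *Ccng1*, 45.9% of *Trp53inp1* and 49.8% of *Zmat3*. *Phlda3* (59.9%), *Perp* (60.2%) and *Mdm2* (65.6%) were next, and *Gadd45a* (74.7%), *Sesn2* (80.1%) and *Trp53* itself (91.1%) moved least. The median over the members was 60.1%, against 100% over all tested genes. A ratio of 0.5 or less was seen in 4.34% of tested genes, and 3.14% had a ratio as low as that of *Cdkn1a*. Pa1-/- replicates 1 and 2 were close to each other in every member, with replicate 1 between 92.8% (*Gadd45a*) and 102% (*Perp* and *Trp53inp1*) of replicate 2.

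**Figure D3:**
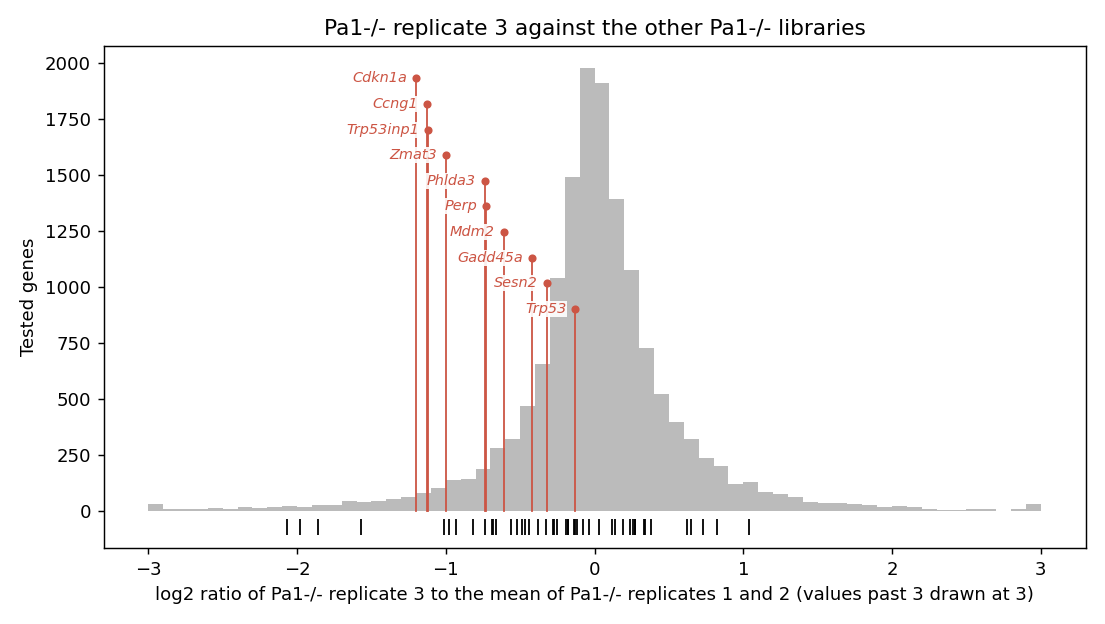
Histogram of the log2 ratio of Pa1-/- replicate 3 to the mean of Pa1-/- replicates 1 and 2 (x axis) over 14919 tested genes (y axis, number of genes), with the members as labelled red stems whose height has no meaning and the 46 other p53 targets as black ticks below 0. 9 of the 10 members lie below -0.3, and *Cdkn1a* lies at -1.20.

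Other features of Pa1-/- replicate 3 moved with these values. Of 5 peritubular myoid cell markers, 4 were tested and all 4 were highest in that library, 1 of them (*Acta2*) past the test. *Myh11* had 648.8, 481.2 and 580 normalized counts in control libraries and 215.7, 164.5 and 1605 in Pa1-/- replicates 1 to 3, and *Des* had 138.6, 92.95 and 113.3 against 43.9, 46.2 and 485. Both were thus below the controls in Pa1-/- replicates 1 and 2 and above them in replicate 3. *Acta2*, with 3129, 2537 and 3239 against 12310, 11890 and 15380, was above the controls in all 3 and made up most of the summed level. Summed over the 5 markers, the level was 3140 to 4000 in control libraries, 12130 to 12610 in Pa1-/- replicates 1 and 2 and 17900 in replicate 3, and no marker of the list was at or under 3 counts throughout. Of 6 macrophage markers, all 5 that were tested fell in Pa1-/- cells (summed level 430 to 517 in control, 88.2 to 134 in Pa1-/- libraries). Leydig cell markers summed to 11680 to 13400 in control and 2423, 2528 and 4229 in Pa1-/- replicates 1 to 3, most of it *Star* and *Cyp11a1*. All 3 tested were lower, and *Cyp17a1* and *Insl3* were at or under 3 counts. Mesothelial markers summed to 65.8 to 109 and 383 to 506, with 3 of 4 higher. Endothelial markers summed to 1700 to 1784 in control and 913.7, 930.5 and 1469 in Pa1-/- replicates 1 to 3, most of it *Cdh5*. Of 3 tested, 2 were lower (*Cdh5* and *Pecam1*). *Kdr* had 62.5, 99.7 and 69.2 in control and 80.0, 74.4 and 485 in Pa1-/- replicates 1 to 3. Germ cell markers summed to 54.2 to 81.8 in control and 25.4, 37.2 and 81.2 in Pa1-/- replicates 1 to 3. Of 3 tested, 2 were lower, and *Stra8*, *Zbtb16* and *Prm1* were at or under 3 counts. *Dazl*, which was not tested, had 7.249, 7.746 and 16.78 in control and 8.785, 6.759 and 45.09 in Pa1-/- replicates 1 to 3. The part of all these cell types in the levels of the p53 targets was not tested.

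With Pa1-/- replicate 3 left out, 3 members passed the test: *Trp53* rose, and *Gadd45a* and *Sesn2* fell. The background was then 43.1% of tested genes (21.2% lower, 21.9% higher). With Pa1F/F replicate 2 left out as well, a setting chosen after the data were seen that leaves 2 close libraries a genotype, 5 members passed against 55.3% of all tested genes (27.3% lower, 28.0% higher). These were *Trp53* (log2 fold change 0.46) and *Mdm2* (0.20), which rose, and *Gadd45a* (-0.43), *Sesn2* (-0.31) and *Perp* (-0.33), which fell. *Cdkn1a*, *Ccng1*, *Phlda3*, *Zmat3* and *Trp53inp1* did not pass in that setting either, at log2 fold changes between -0.14 and 0.08.

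Compared per length, *Cdkn1a* was the most abundant member. Using the length of the Ensembl canonical transcript, its level was 134.1 ± 2.42 RPKM in control and 109.4 ± 43.9 RPKM in Pa1-/- cells (SD, n = 3 each). *Ccng1* followed at 99.6 ± 1.58 RPKM in control cells, above *Gadd45a* at 59.5 ± 1.98 RPKM and *Trp53* at 53.5 ± 7.95 RPKM. The levels of *Gadd45a* and *Trp53* differed by less than their spread in control cells, as did those of *Trp53*, *Phlda3* and *Mdm2*. *Phlda3* and *Mdm2* had 45.7 RPKM each, *Perp* 29.4, *Sesn2* 28.7 and *Trp53inp1* 26.8 RPKM, which differed by less than their spread, and *Zmat3* was last at 10.7 RPKM. In Pa1-/- cells *Trp53* (65.2 RPKM) stood above *Gadd45a* (39.8 RPKM). The order depends on the length chosen: with all annotated exons of a gene joined, *Trp53* was at 13.4, *Cdkn1a* at 42.7 and *Ccng1* at 79.5 RPKM in control cells.

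**Figure D4:**
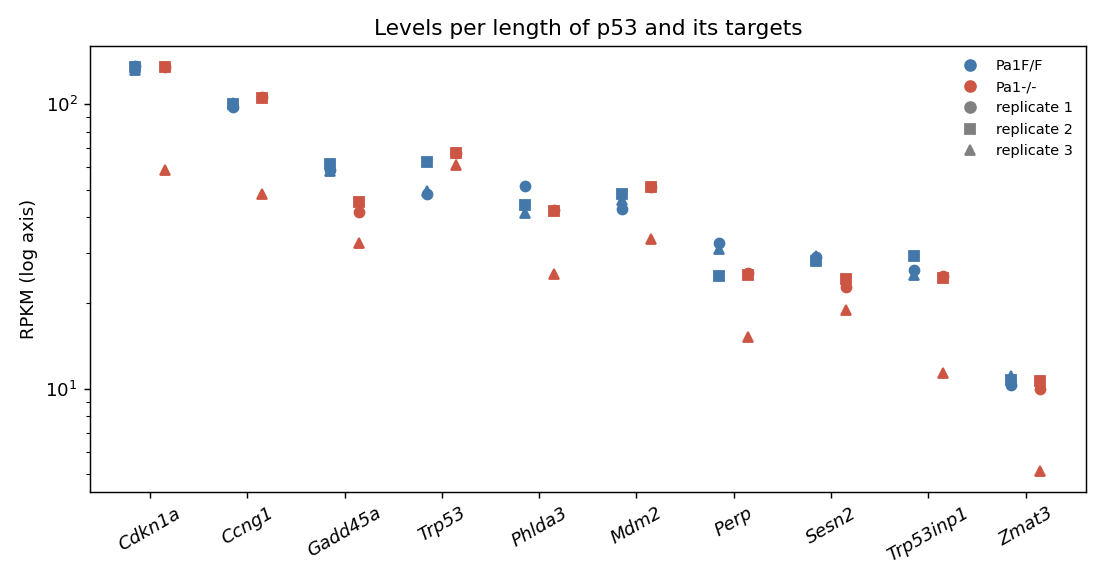
Level per length in RPKM (y axis, log scale) of the 10 members (x axis, in the order of their control mean) in each Pa1F/F and Pa1-/- library, with symbols for the replicate number. *Cdkn1a* leads at 134.1 RPKM in control cells and *Zmat3* is last at 10.7 RPKM.

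A wider list of 46 p53 targets was measured, all of them tested. Of these 4 rose and 9 fell in Pa1-/- cells (28.3%), a share below the 35.3% of all tested genes, and their median log2 fold change was -0.01. Without Pa1-/- replicate 3, 25 passed, 12 higher and 13 lower, against 43.1% of tested genes, and without Pa1F/F replicate 2 as well 35 passed, 21 higher and 14 lower, against 55.3%. *Sfn*, which encodes 14-3-3 sigma, a brake on entry into mitosis, had 2142, 1814 and 1960 normalized counts in control libraries and 7.81, 10.1 and 14.0 in Pa1-/- libraries, a log2 fold change of -7.52 ± 0.17 (SE, adjusted p 5.15e-06, edgeR). No other gene of the list came near that change. *Fdxr*, a mitochondrial reductase, had 1557, 2231 and 1455 normalized counts in control and 413.9, 511.5 and 819.6 in Pa1-/- libraries and fell by 1.59 on the log2 scale (adjusted p 0.00578, edgeR). It was highest of the Pa1-/- libraries in replicate 3, unlike the members, and lost its call with the close replicates summed (-1.53, adjusted p 0.0660, edgeR). *Ptprv*, a receptor-type phosphatase, had 104.2, 215.9 and 133.2 normalized counts in control and 273.3, 291.8 and 366.7 in Pa1-/- libraries and rose by 1.04 (adjusted p 0.0245, edgeR). The call of *Ptprv*, though not the size of its difference, was lost without Pa1F/F replicate 1 (0.83, adjusted p 0.0608), Pa1F/F replicate 3 (0.96, 0.0872) or Pa1-/- replicate 2 (adjusted p 0.0535), and with close replicates summed (0.99, 0.134; edgeR).

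By role, the targets in metabolism and stress held most of the falls, with 7 of 15 lower and 1 higher, where 17.1% of all tested genes were lower and 18.2% higher. Genes named from here to the end of the paragraph were chosen after their values were seen. *Ddit4*, which restrains mTORC1 as *Sesn2* does, had 1608, 1563 and 1518 normalized counts in control and 910.7, 915.9 and 890.8 in Pa1-/- libraries (log2 fold change -0.79 ± 0.05 SE, adjusted p 0.000179, edgeR), so here Pa1-/- replicate 3 did not stand apart. *Sesn1*, the other sestrin gene of the list, had 557.3, 493.8 and 598.9 in control and 328, 352.6 and 282.6 in Pa1-/- libraries and fell by 0.78. Among 13 cell death genes (against the same shares of all tested genes) 1 fell and none rose by edgeR at the adjusted threshold, namely *Bbc3*, which encodes PUMA (-0.86, adjusted p 0.00658, edgeR). Of 8 genes for DNA repair and nucleotide supply, 2 rose, *Pcna* (0.81) and *Polh* (0.72), against 18.2% of all tested genes. *Pcna*, the sliding clamp of replication, had 1019, 1112 and 1080 normalized counts in control and 1752, 1765 and 2119 in Pa1-/- libraries.

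Pa1-/- replicate 3 was the lowest library for 24 of the 46 further targets (52.2%) and for 10 of the 13 cell death genes, against 23.6% of all tested genes, and its median ratio to replicates 1 and 2 over the 46 was 87.9%. The genes named in this paragraph were likewise chosen after their values were seen. *Eda2r*, a death receptor, had 1264, 1331 and 1330 normalized counts in control and 1777, 1863 and 500 in Pa1-/- libraries. *Siva1* had 607.1, 620.7 and 155.3 in the Pa1-/- libraries, and *Aen*, an apoptosis-associated nuclease, 1403, 1446 and 706.4. In these genes, as in *Mdm2*, Pa1-/- replicates 1 and 2 lay above the controls and replicate 3 below them. *Rps27l*, which holds a half-site pair printed above, had 1159, 1234 and 1202 normalized counts in control and 1460, 1370 and 893.8 in Pa1-/- libraries, the same order. *Gtse1*, which also holds a pair, had 383.3, 598.4 and 390.2 against 469.5, 468.6 and 444.9, and there Pa1F/F replicate 2 was the library apart. *Tap1* (191.2, 1270 and 203.5 in control) and *Pml* (674.2, 1921 and 753), which interferon also induces, were highest in that control library too.

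**Figure D5:**
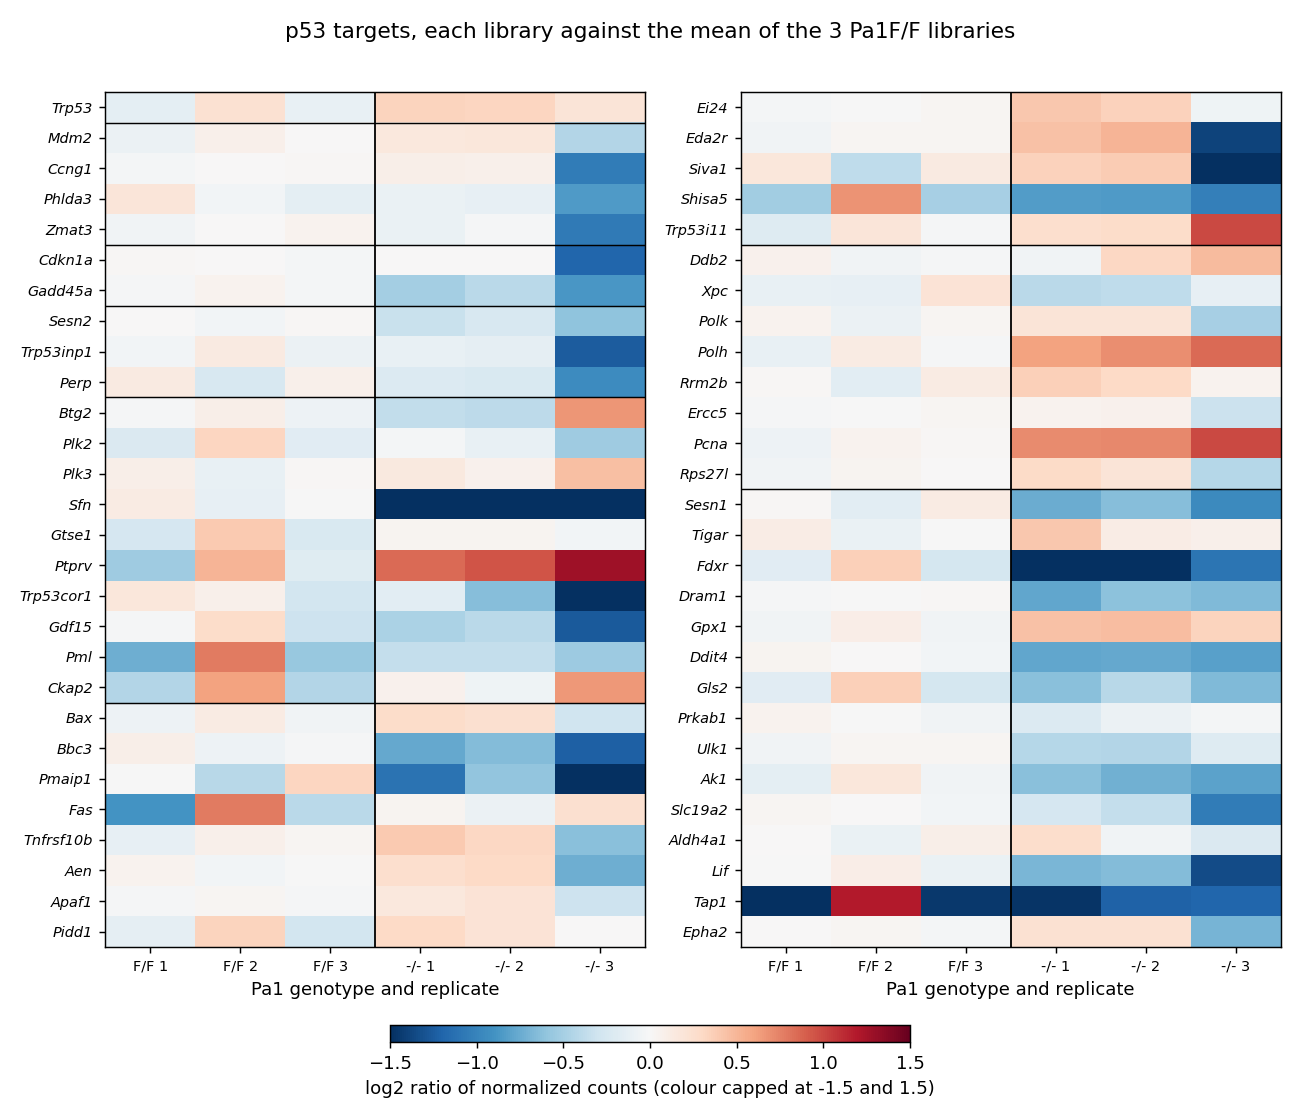
Log2 ratio of normalized counts of each library to the mean of the 3 Pa1F/F libraries (colour, capped at -1.5 and 1.5) for the 10 members, at the top left, and the 46 further p53 targets, with lines between groups of genes by role and a vertical line between the genotypes. *Sfn* is dark blue in all 3 Pa1-/- libraries, while *Cdkn1a*, *Ccng1*, *Zmat3*, *Trp53inp1*, *Eda2r* and *Siva1* are dark blue in Pa1-/- replicate 3 alone.

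Genes that p53 lowers indirectly through p21 were all cell cycle genes, 22 in number and all tested. In Pa1-/- cells 11 of 22 rose, against 18.2% of all tested genes, and none fell by edgeR (16 higher and 0 lower at an unadjusted p under 0.05, 17 higher and 0 lower by DESeq2, and 13 higher and 0 lower by limma-voom), with a median log2 fold change of 1.04 against 0.002 over all tested genes. *Mki67*, the proliferation marker, had 804.7, 1298 and 826.5 normalized counts in control and 2956, 3088 and 4313 in Pa1-/- libraries, a log2 fold change of 1.82 ± 0.23 (SE, adjusted p 0.00174, edgeR). The topoisomerase gene *Top2a* rose by 1.59, the transcription factor gene *Foxm1* by 1.53, the cyclin gene *Ccna2* by 1.41 and the survivin gene *Birc5* by 1.37. The mitotic kinase genes *Aurkb* (1.33) and *Bub1* (1.32) and the replication helicase gene *Mcm5* (1.19) rose as well, all on the log2 scale. When close replicates were summed into 1 library, which leaves 4, 1 of the 22 passed (*Mki67*), and the other 7 genes named here lost their call at adjusted p between 0.0543 and 0.0791 (edgeR). The log2 fold changes of these 7 genes there lay between 1.29 (*Mcm5*) and 1.59 (*Top2a*). The share of all tested genes past the test was not worked out for the summed libraries. All 22 genes were highest of the 6 libraries in Pa1-/- replicate 3, as were 24.2% of all tested genes. The median of the 22 there was 169% of replicates 1 and 2. *Cdkn1a* was lowest in that library, while its mean in Pa1-/- replicates 1 and 2 was 100.5% of the control mean. A link between the level of *Cdkn1a* and these genes was not tested. Without Pa1-/- replicate 3, 11 of the 22 passed, all higher, against 21.9% of tested genes that were higher in that setting. Without Pa1F/F replicate 2 as well, all 22 passed and were higher, against 28.0% of tested genes.

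Among the regulators of p53, the share past the test was near the background. Of 23 genes 21 were tested, of which 3 rose and 5 fell (38.1%, against 35.3% of all tested genes), with a median log2 fold change of 0.02. The count was 2 without Pa1F/F replicate 1, Pa1F/F replicate 3 or Pa1-/- replicate 1, and 5 without Pa1-/- replicate 2. It was 3 with the replicate block and 1, *Chek1*, with close replicates summed, so that the genes named below other than *Chek1* did not pass in that setting. The share of all tested genes past the test was not worked out for these settings. *Mdm4*, the partner of MDM2 that blocks p53, had 2058, 2509 and 2059 normalized counts in control and 2176, 2164 and 2518 in Pa1-/- libraries (log2 fold change 0.05 ± 0.10 SE, adjusted p 0.734, edgeR). *Chek1*, the checkpoint kinase gene, was the one regulator past both thresholds, with 86.1, 80.4 and 79.7 normalized counts in control and 167.9, 155.5 and 236.5 in Pa1-/- libraries (1.18 ± 0.19 SE, adjusted p 0.00376, edgeR). Without Pa1-/- replicate 3 its log2 fold change was 0.98 (adjusted p 0.00102, edgeR), just under the fold threshold of 1. Without both libraries that stand apart it was 0.96 (adjusted p 1.15e-05, edgeR). The other 2 that rose were *Cop1*, a ubiquitin ligase gene listed under its older symbol *Rfwd2* (0.25), and the kinase gene *Atr* (0.21). The 5 that fell were the acetyltransferase genes *Ep300* (-0.32) and *Crebbp* (-0.27), the kinase gene *Hipk2* (-0.51) and *Ppp1r13b* (-0.66) and *Ppp1r13l* (-0.35), whose products bind p53. These 7 were named after their values were seen. *Trp63* and *Trp73*, the other members of the p53 family, were not tested, with at most 5 and 4 counts in a library.

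The genes whose log2 CPM values followed those of *Trp53* most closely over the 6 libraries were *Nfe2l1* (Pearson's r = 0.9986), *H2-M3* (0.9958) and *Cct8* (0.9955). In all, 70 genes lay above 0.95, so the likeness is a description of 6 points that share 2 genotypes.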

How the data were processed

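RNA-seq counts of 6 Sertoli cell libraries, 3 Pa1F/F and 3 Pa1-/-, were taken from the count table. Per the labels and the methods of the study, the authors used HISAT2 2.1.0 to align reads to GRCm38, counted reads per gene with HTSeq 0.6.0, and deposited the counts without normalization. Columns of the authors' own comparison (mean, fold change, log2 fold change, p-value, adjusted p-value and calls) were not used. The strand setting of the counting is not given in the sources used here.

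Genes were filtered with filterByExpr of edgeR 4.0.16 (minimum count 10, minimum total 15), normalized with TMM, and compared by the quasi-likelihood F-test with Benjamini-Hochberg adjustment over 14919 tested genes, without further terms, in R 4.3.3. Differentially expressed means an adjusted p under 0.05 together with a log2 fold change of 1 or more in either direction. Single genes were also compared by the exact two-sided permutation test of 3 against 3 libraries. A standard error is the log2 fold change divided by the square root of F. TMM centres most genes on no change. RPKM values used transcript lengths of GENCODE vM39, matched by Ensembl identifier, and promoter windows came from RefSeq (GRCm38.p6). Tables were made with Python 3.11.15. On simulated counts with a log2 fold change of 2 in 196 of 14676 tested genes, 92.3% were recovered and 3.72% of calls were unchanged genes. The members' log2 fold changes lay between -0.58 and 0.29, so this recovery does not apply to changes of their size. Simulated libraries were drawn independently, without the close pairs of these data.

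Alternatives were DESeq2 1.42.0, limma 3.58.1 (voom), 2 other scalings, 2 other filters, a replicate block, each library left out, close replicates summed and, added after the data were seen, both libraries that stand apart left out. Total counts of 13203757 to 16231443 limit the precision of low genes. Reads carry no molecular identifiers. A count of 3 was the floor. The labels do not say whether replicate numbers pair the libraries.

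The members and lists were chosen with earlier results of these data known. Named were all 10 members, and from the lists of other targets, regulators and genes lowered through p21 those past both thresholds, at most 8 a list by absolute log2 fold change, with *Sfn*, *Mdm4*, *Trp63* and *Trp73* whatever their values. Other genes of these lists were named after their values were seen, as is said beside them, and *Rps27l* and *Gtse1* for their half-site pairs. For *Trp53* the 3 most correlated genes outside the members were named.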

Additional observations from a re-analysis of the deposited data

How the results depend on the processing

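The number of members past the adjusted threshold was 2 over all 6 libraries and lay between 1 and 3 with 1 library left out (1 without Pa1F/F replicate 1, Pa1F/F replicate 3 or Pa1-/- replicate 1). It was 0 by edgeR with the close replicates summed, which leaves 4 libraries, and 5 without both libraries that stand apart. No member was differentially expressed under any of the 15 alternatives. Of the other p53 targets 13 passed, 11 to 25 with 1 library left out, 6 with close replicates summed, and 35 without both libraries, where more were higher than lower. Of the p53 regulators 8 passed, 2 to 8 with 1 library left out (2 higher and none lower without Pa1F/F replicate 3), and 1, higher, with close replicates summed. Of the genes lowered through p21 11 passed, 8 to 16 with 1 library left out, 17 by DESeq2, 1 with close replicates summed and 22 without both libraries. Among the alternatives, shares of all tested genes past the test were worked out only without Pa1-/- replicate 3 (43.1%) and without both libraries (55.3%). In the other settings these counts cannot be told from a general change in calls. Summing leaves fewer libraries. Otherwise the cause of these shifts was not tested. *Mdm2* turned from -0.01 to 0.20 on the log2 scale without both libraries. *Gadd45a* kept its direction throughout and lost its call with close replicates summed alone (-0.64), and *Sesn2* lost its call under 4 alternatives, at -0.37 to -0.41. *Sfn* has no value under the stricter filter (10 counts in every library).

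Between same-numbered libraries, deviations from the genotype mean had r of 0.10, -0.16 and -0.17 for numbers 1, 2 and 3. With 3 libraries a genotype, 1 library apart in each largely sets these signs. The values therefore cannot decide whether the numbers pair the samples. Of all 9 pairs across the genotypes, Pa1F/F replicate 2 and Pa1-/- replicate 3, the libraries that stand apart, had the highest r (0.21). With the replicate block, 2 members, 14 other targets, 3 regulators and 11 genes lowered through p21 passed. The share of all tested genes was not worked out with the block.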
